A study of Homo sapiens with 28 samples.

Results

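The gene counts held 39 genes of homologous recombination, of the Fanconi anemia pathway and of the replication checkpoint that works with them, among 58278 rows in all. They were taken by gene symbol alone, each symbol matched 1 row, and all 39 passed the filter on low counts in the tumors, in the cultures and in both together. Homologous recombination repairs a broken chromosome by copying the sister chromatid, so it acts mainly once DNA has been replicated: the break is trimmed to single-stranded DNA, BRCA1, PALB2 and BRCA2 prepare that DNA for invasion of the sister, and helicases and nucleases then resolve the joined molecules. The Fanconi pathway deals with crosslinks that stop the replication fork, by having a core ubiquitin ligase mark the FANCD2-FANCI pair, and the kinases ATR and ATM signal stalled forks and breaks. Many of these genes are transcribed mostly in cells that are preparing or carrying out DNA replication.

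HCT116, a human colorectal carcinoma line, was used as a derivative that expresses luciferase and GFP, and was injected under the skin of male NOD-SCID mice, an immunodeficient strain, at 5 weeks of age. For 23 days the mice received vehicle (Control), 100 mg/kg/day of Palbociclib, which inhibits the cell cycle kinases CDK4 and CDK6, 150 mg/kg/day of Telaglenastat, which inhibits glutaminase, or both drugs at those doses (Combination), all by mouth. Polyadenylated RNA was sequenced from 3 Control, 5 Palbociclib, 4 Telaglenastat and 4 Combination tumors, and from 12 cultures established from tumors of these mice, 3 lines per treatment, which were kept without drug. All groups share the same parental line, reporter and host strain, so they model 1 cancer genome, and the tumors still hold mouse cells whose reads were handled in a way not given in the sources used here. The labels do not say which tumor gave which culture.

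The 28 libraries held between 6273834 and 13815675 counts, and the 8 Telaglenastat and Combination tumors held 6463239 to 7218778. No libraries agreed within sampling noise. Of 8 epithelial markers CDX1 had no count in any tumor and VIL1 none in the 4 Telaglenastat tumors and a median of 0 in Control and Palbociclib tumors, while EPCAM, KRT8 and CDH1 were counted in every tumor, and the sum of the list was 2897 to 3441 CPM (counts scaled to library size and given per 1e6) in Control, 3158 to 4419 in Palbociclib, 1533 to 1758 in Telaglenastat and 2327 to 2563 in Combination tumors. The sum of 17 stroma, vessel and leukocyte markers was 189 to 236 CPM in Control, 149 to 241 in Palbociclib, 58.6 to 71.5 in Telaglenastat and 113 to 164 in Combination tumors, with CDH5 and LUM at 0 in every tumor, and it was at most 15.4 CPM in any culture. The libraries also differed in how a gene's count depended on its GC content. The slope of the log2 level on GC content, per SD of GC content over genes, was 0.26 ± 0.01 (SD, n = 3) in Control and 0.29 ± 0.11 (n = 5) in Palbociclib tumors against -0.34 ± 0.04 (n = 4) in Telaglenastat and -0.21 ± 0.06 (n = 4) in Combination tumors. Mitochondrially encoded transcripts took 6.78% to 7.22% of counts in Control, 8.28% to 13.6% in Palbociclib, 6.23% to 9.07% in Telaglenastat and 13.2% to 14.8% in Combination tumors. The second Palbociclib tumor stood apart from the other 4 of its group, with 13.6% mitochondrial counts against at most 9.58%, a GC slope of 0.09 against 0.32 to 0.37 and an epithelial sum of 3158 CPM against 4244 to 4419. In squared count differences relative to sampling noise, it lay 10.99 to 16.07 from the Combination tumors. From the other Palbociclib tumors it lay 15 to 21.49, and those lay 30.24 to 48.31 from the Combination tumors. Its mitochondrial share and its stroma, vessel and leukocyte sum of 149 CPM fell within the Combination range. So did the share of counts in its most abundant genes (29.3%, in Combination 28.6% to 30.0%) and its summed origin licensing genes (1099 CPM, in Combination 982 to 1131). Its GC slope, epithelial sum and summed level of the members did not. Whether its label is right was not tested. Without this tumor the calls described below numbered 17 for Palbociclib against Control tumors and 17 for Combination against Palbociclib tumors, where all tumors gave 17 and 18, the interaction in tumors stayed at 0, and the Palbociclib effect differed between tumors and cultures in 8 members, where all libraries gave 7. These measures move with the drugs, and their part in the results was not tested except for GC content and gene length, for which each comparison was also fitted with that trend removed from every library.

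In the Control tumors the members spanned a wide range of levels. Divided by the length of their exons, so that genes can be compared, the mean levels ran from 1.13 CPM per kilobase for XRCC3, a strand exchange factor, to 24.1 for UBE2T, the ubiquitin-conjugating enzyme of the Fanconi pathway, with a median over the 39 members of 6.15. Next to UBE2T stood NBN at 21.5 and RBBP8 at 21.3 CPM per kilobase, both of which act on the broken end, followed by FANCI at 16.7 and TOPBP1, an activator of ATR, at 13.9. The neighbours NBN and RBBP8 lay within each other's spread, with SDs that were 4.35% and 8.08% of their mean CPM. The large kinase gene ATM stood at 2.20 CPM per kilobase and BRCA2 at 3.21, both low in the order. Exon length was that of the union of all annotated exons, so a gene with long rarely used exons is set low on this scale.

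Taken as a sum, the 39 members made up 1672 ± 25.6 CPM (SD, n = 3) in Control tumors, 1311 ± 22.6 (n = 5) in Palbociclib tumors, 2055 ± 83.5 (n = 4) in Telaglenastat tumors and 1477 ± 52.6 (n = 4) in Combination tumors. The 4 sets of tumors did not overlap: the Palbociclib tumors ran from 1274 to 1331, the Combination tumors from 1424 to 1546, the Control tumors from 1644 to 1695 and the Telaglenastat tumors from 1937 to 2132 CPM. In cultures the sum read higher, with 2492 to 2893 CPM for Control, 2838 to 3029 for Palbociclib, 2082 to 2574 for Telaglenastat and 2467 to 2811 for Combination lines. CPM were scaled within the tumors and within the cultures apart, so sums of tumors and cultures are not on the same scale. The Palbociclib lines overlapped the Control lines and lay above every Telaglenastat and Combination line, and the other sets overlapped one another. The sum is a description dominated by the abundant members. It was taken without removing the GC and length trend, whose GC slope differed between these groups of tumors, and the part of that trend in the gaps between the sums was not tested. In bulk RNA, fewer cells that express a gene cannot be told apart from less RNA of it in each cell.

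**Figure D1:**
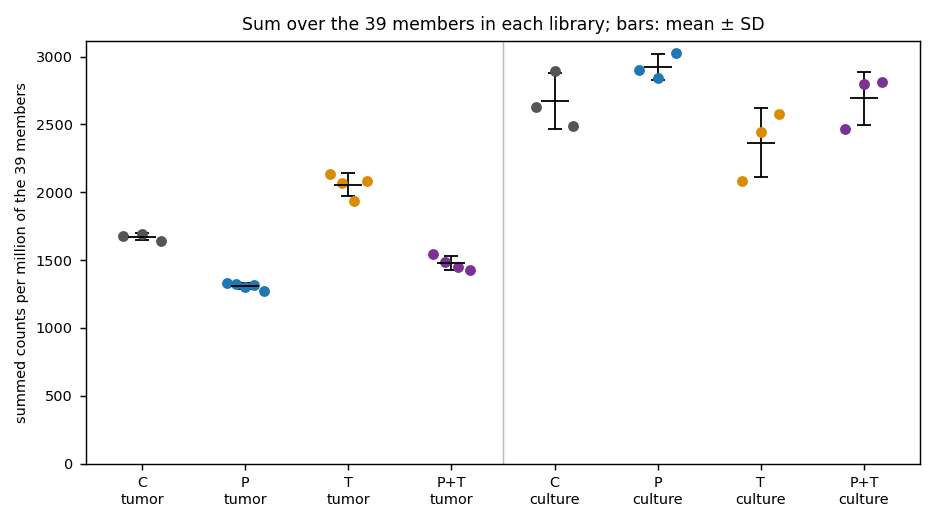
Summed level of the 39 members in each of the 28 libraries (vertical axis, CPM), by treatment (C Control, P Palbociclib, T Telaglenastat, P+T both) for tumors on the left and cultures on the right. Points are libraries and bars are the mean ± SD. Tumors and cultures were scaled apart, and the GC and length trend was not removed. Among the tumors those given Palbociclib sit lowest, between 1274 and 1331, and every culture sits between 2082 and 3029.

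The first comparison asked what Palbociclib alone did to these genes in the tumors. Of the 39 members 17 measured lower and 0 higher after Palbociclib by edgeR's quasi-likelihood test at an adjusted p under 0.05, while 3.6% of the 14848 genes tested were lower and 2.55% higher. The median log2 fold change was -0.37 over the members and 0.00067 over all genes, and 35 of the 39 members had a negative value. In 21 members every Palbociclib tumor lay below every Control tumor, which was so for 7.83% of all genes tested, and in 0 members did every one lie above. The calls of BARD1, BRCA2, TOPBP1 and FANCD2 were lost without 1 or another of the Control tumors, with adjusted p values up to 0.102, 0.0925, 0.08 and 0.0529. Without the second Palbociclib tumor 17 members were lower, 16 of them the same genes, beside 4.24% of all genes lower, at a median of -0.38. With the GC and length trend removed 18 members were lower, among them all 17, beside 4.05% of all genes lower and 3.86% higher under that setting, and the members' fold changes showed little relation to GC content (r = -0.05 across the 39 genes, which share the same libraries).

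The BRCA proteins act between the trimming of the break and strand invasion. BRCA1, which with BARD1 forms a ubiquitin ligase (gene at chromosome 17, 43044295 to 43170245, GRCh38, reverse strand), measured 62.4, 61.2 and 59.8 CPM in the Control tumors and 43.3, 47.1, 42.7, 41.9 and 33.7 in the Palbociclib tumors. No Palbociclib tumor reached the lowest Control tumor. BRCA1 fell by 31.5% (log2 fold change -0.55 ± 0.12 SE, adjusted p = 0.00651). Its partner BARD1 measured 28.5, 28.4 and 20.9 CPM in Control and 16.1, 17.5, 17.4, 15.7 and 18.9 in Palbociclib tumors, again without overlap, at a log2 fold change of -0.61 ± 0.15 (adjusted p = 0.0146). BRCA2 measured 37.5, 40.4 and 40.3 CPM in Control and 34.7, 27.6, 26.5, 29.5 and 21.4 in Palbociclib tumors, at -0.49 ± 0.12 (adjusted p = 0.0203). PALB2, which bridges BRCA1 and BRCA2, overlapped between the groups, with 27.0 to 30.5 CPM in Control and 25.2 to 31.9 in Palbociclib tumors, and its log2 fold change of -0.07 had a 95% interval from -0.29 to 0.14.

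Among the 7 genes whose proteins help the broken strand invade the sister duplex, 2 were called. RAD54L, a motor protein that drives strand invasion (chromosome 1, 46247688 to 46278473, forward strand), measured 27.2, 27.4 and 27.1 CPM in Control and 20, 14.6, 17, 17.7 and 16.4 in Palbociclib tumors. The groups stood well apart, and RAD54L fell by 36.9% (log2 fold change -0.66 ± 0.12, adjusted p = 0.00109). RAD51AP1, which stimulates the formation of joint molecules, went from 29.9 to 32.1 CPM in Control to 17.1 to 24.8 in Palbociclib tumors, at -0.60 ± 0.12 (adjusted p = 0.00233). The genes RAD51C, RAD51D, XRCC2 and XRCC3 and the second motor protein RAD54B did not pass, with log2 fold changes between -0.41 and -0.26. For RAD54B 59.1% of the exon length is shared with FSBP on the same strand, so its reads may be split between the genes.

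End resection showed 1 call among 5 genes. EXO1, the exonuclease that extends the single-stranded stretch, measured 39.2, 41.9 and 33.0 CPM in Control and 27.8, 23.3, 20.9, 17.8 and 22.9 in Palbociclib tumors. All 5 treated tumors lay below the Controls, and EXO1 fell by 40.8% (log2 fold change -0.76 ± 0.13, adjusted p = 0.00102). MRE11, RAD50 and NBN, which form the complex that first binds the break, stood at 0.03, -0.22 and -0.18, and their 95% intervals reached no lower than -0.54. RBBP8, the cofactor that starts the cut, was at -0.23 ± 0.08 (adjusted p = 0.0994). RAD50 shares 79.7% of its exon length with the unnamed same-strand gene AC116366.3.

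The helicases and nucleases that unwind or cut joined DNA held 4 calls among 6 genes, and the lowest value of all members. BRIP1, a helicase that binds BRCA1 and is also a Fanconi gene (chromosome 17, 61681266 to 61863521, reverse strand), measured 61.0, 53.7 and 52.0 CPM in Control and 31.3, 29.1, 32.4, 28.7 and 31.9 in Palbociclib tumors. The highest treated tumor stood far below the lowest Control, and BRIP1 fell by 44.8% (log2 fold change -0.86 ± 0.09, adjusted p = 7.32e-06). RMI1, a subunit of the complex that dissolves double Holliday junctions, measured 34.8, 43.3 and 35.4 CPM in Control and 25.3, 22.1, 19.9, 22.3 and 23.2 in Palbociclib tumors, at -0.75 ± 0.12 (adjusted p = 0.00055). The helicase BLM of the same complex was at -0.62 ± 0.14 (adjusted p = 0.00868), whereas its other subunit RMI2 was at 0.00 with a 95% interval from -0.32 to 0.31. EME1, a subunit of a junction nuclease, was at -0.49 ± 0.14 (adjusted p = 0.0464), and its catalytic partner MUS81 at -0.09 ± 0.18.

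In the Fanconi pathway the core ligase and the pair it marks are listed apart. Of the 9 core and UBE2T genes 2 were lower: FANCA, a core subunit, measured 55.8, 52.8 and 51.8 CPM in Control and 25.6, 20.2, 35.8, 33.1 and 34.2 in Palbociclib tumors. FANCA fell by 44.3% (log2 fold change -0.85 ± 0.16, adjusted p = 0.00241). UBE2T was at -0.62 ± 0.10 (adjusted p = 0.000553), and the other 7, FANCB, FANCC, FANCE, FANCF, FANCG, FANCL and FANCM, lay between -0.43 and 0.07 without a call. FANCG, at -0.43 ± 0.14 (adjusted p = 0.0838), was called once the GC and length trend was removed (adjusted p = 0.0284). Both genes of the marked pair were lower. FANCI measured 128, 133 and 128 CPM in Control and 93.2, 90.3, 90.5, 89.3 and 81.5 in Palbociclib tumors, at -0.54 ± 0.08 (adjusted p = 0.000164). FANCD2 measured 69.3, 64.0 and 64.3 against 50, 54.8, 52.7, 51.3 and 44.8 CPM, at -0.37 ± 0.08 (adjusted p = 0.00611).

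The checkpoint genes divided. CLSPN, the claspin adaptor that hands ATR's signal to CHK1, measured 43.9, 42.1 and 36.1 CPM in Control and 28.9, 24.2, 22.9, 22.9 and 21.4 in Palbociclib tumors. It fell by 40.7% (log2 fold change -0.75 ± 0.12, adjusted p = 0.00059). CHEK1, the CHK1 kinase itself, was at -0.34 ± 0.09 (adjusted p = 0.0306) and TOPBP1 at -0.28 ± 0.07 (adjusted p = 0.0104). The kinases ATR and ATM, at 0.12 and 0.18, had 95% intervals from -0.06 to 0.29 and from -0.09 to 0.44. POLQ, the polymerase of an alternative end-joining route, was at -0.38 ± 0.13 (adjusted p = 0.0955).

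**Figure D2:**
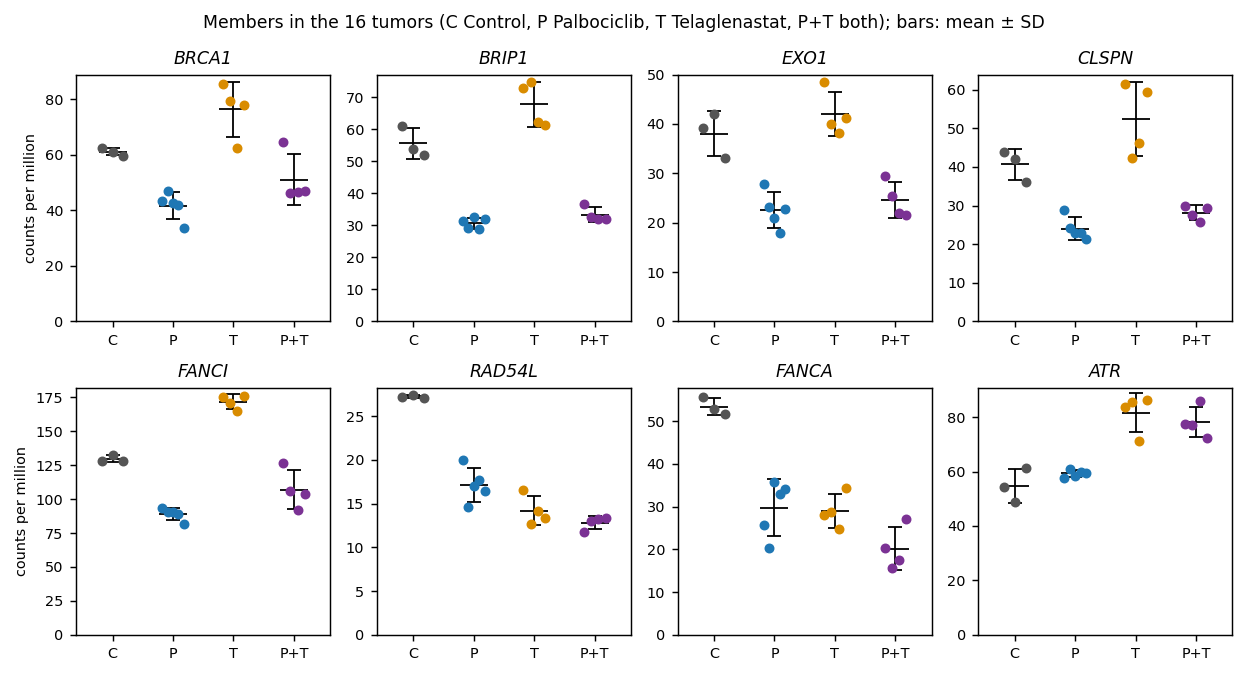
Levels of 8 members in the 16 tumors (vertical axes, CPM, each from 0) for Control (C), Palbociclib (P), Telaglenastat (T) and Combination (P+T) tumors. Points are tumors and bars are the mean ± SD. In the first 7 panels every Palbociclib tumor lies below every Control tumor, for BRIP1 at 28.7 to 32.4 against 52.0 to 61.0, while ATR overlaps between those groups.

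Other genes of the pathway were listed beside the members. Members and lists were chosen with earlier results of these data known, so their shares of calls cannot be ranked. Of 64 further recombination and Fanconi genes found in the file 63 were tested. With Palbociclib 9 were lower and 0 higher, at a median of -0.16, beside 3.6% of all genes lower and 2.55% higher. They included USP1, which removes ubiquitin from FANCD2 (-0.80 ± 0.10), FIGNL1, an ATPase of recombination (-0.69 ± 0.12), and H2AX, the histone marked at breaks (-0.93 ± 0.18). Of 15 non-homologous end joining genes 1 was lower, NHEJ1 at -0.44 ± 0.12. Of 21 origin licensing and replicative helicase genes, which are markers of cells about to replicate, 8 were lower and 0 higher at a median of -0.38, with GMNN at -1.16 ± 0.16 and MCM6 at -0.52 ± 0.08.

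Since many members fell together, the 250 bases before their RefSeq starts (GRCh38.p14) were searched on both strands for 3 promoter motifs. These were the E2F consensus (TTTCCCGC, TTTCGCGC, TTTGCCGC or TTTGGCGC), the cell cycle homology region (TTTGAA or TTCGAA) and the CCAAT box. RefSeq entries matched 35 of the 39 members, and none was found for FANCI, NBN, RAD54B and RMI2. A CCAAT box was present for 17 of the 35 members (48.57%) and for 37.0% of 27305 genes with a promoter entry. It was present for 10 of the 16 matched members that were lower with Palbociclib (62.5%) and for 7 of the 19 that were not (36.84%). The E2F consensus was present for 3 members (8.57%, against 3.4% of all), namely RMI1, FANCA and FANCC, and the cell cycle homology region for 5 (14.29%, against 17.23%). The upstream sequences of the 3 members with a motif and the smallest adjusted p among the checkpoint, FANCD2-FANCI, BRCA and strand invasion genes are shown 5′ to 3′, because they show where the box lies in genes that fell. They come from chr1:35769979-35770228 (reverse strand), chr1:46247438-46247687 (forward) and chr12:4538640-4538889 (forward), and capitals mark the CCAAT box, written ATTGG where it is on the opposite strand.
CLSPN: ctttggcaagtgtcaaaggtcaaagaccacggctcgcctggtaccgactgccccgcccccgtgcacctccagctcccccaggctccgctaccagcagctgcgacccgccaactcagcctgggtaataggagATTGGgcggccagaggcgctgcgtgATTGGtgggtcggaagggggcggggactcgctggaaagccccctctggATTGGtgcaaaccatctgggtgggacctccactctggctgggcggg
RAD54L: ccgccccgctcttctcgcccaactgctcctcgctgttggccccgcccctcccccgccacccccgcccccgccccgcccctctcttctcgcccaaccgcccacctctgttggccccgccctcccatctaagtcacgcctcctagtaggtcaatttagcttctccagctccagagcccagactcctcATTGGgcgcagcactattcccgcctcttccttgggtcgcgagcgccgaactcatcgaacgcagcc
RAD51AP1: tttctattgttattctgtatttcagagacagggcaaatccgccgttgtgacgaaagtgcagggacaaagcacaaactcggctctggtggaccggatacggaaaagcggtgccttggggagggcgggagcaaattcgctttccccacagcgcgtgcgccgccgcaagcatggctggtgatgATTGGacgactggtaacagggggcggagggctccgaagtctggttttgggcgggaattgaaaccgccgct
CLSPN held 3 boxes, whose first bases lay 119, 94 and 46 bases before the start, the RAD54L window shown, 1 of those listed for that gene, held 1 at 65 and RAD51AP1 1 at 70. Such matches describe the letters in these windows and not binding.

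Telaglenastat alone was compared with the same 3 Control tumors. By the counts 19 members were higher and 6 lower, beside 22.6% of all genes higher and 28.5% lower, with a median log2 fold change of 0.31 over the members and 0.03 over all genes. The 19 higher members had exons of 36.3% to 44.2% GC and the 6 lower ones of 52.4% to 61.1% GC, and across the 39 members the fold change fell with GC content (r = -0.86, Spearman's rho = -0.67, with r = -0.69 over 14800 genes). With the GC and length trend removed 2 members were called, beside 13.2% of all genes, and 7 of the 25 calls changed sign. Those 2 were RAD54L, lower at -0.65, and RMI2, higher at 0.55 (adjusted p = 0.000741 and 0.0224). In the same tumors 6 of 7 tested stroma, vessel and leukocyte markers and 5 of 7 epithelial markers were lower, and their part in these values was not tested.

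RAD54L was thus the only member lower with Telaglenastat in both fits. It measured 16.6, 12.7, 14.1 and 13.4 CPM in Telaglenastat tumors against 27.1 to 27.4 in Control tumors, without overlap, and fell by 47.9% in the counts (log2 fold change -0.94 ± 0.13, adjusted p = 4.7e-06). RMI2 measured 17.8, 20.3, 26.0 and 25.2 CPM against 17.7, 18.3 and 15.7, and these groups overlap. In the counts it was at 0.37 ± 0.16 (adjusted p = 0.0592).

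All 5 checkpoint genes were higher in the counts. ATR (chromosome 3, 142449235 to 142578826, reverse strand) measured 83.7, 85.6, 71.2 and 86.3 CPM against 54.2, 48.9 and 61.3 in Control tumors, at 0.58 ± 0.09 (adjusted p = 2.29e-05). ATM was at 0.69 ± 0.13 (adjusted p = 0.000233) with 78.1, 84.9, 80.5 and 94.9 against 60.3, 43.1 and 54.6 CPM. Neither pair of groups overlapped, and with the trend removed the values were 0.19 (adjusted p = 0.151) and 0.27 (adjusted p = 0.124). POLQ was at 0.61 ± 0.14 in the counts and 0.26 with the trend removed (adjusted p = 0.22).

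The BRCA group and the FANCD2-FANCI pair gave the same contrast. In the counts all 4 BRCA genes and both FANCD2 and FANCI were higher, at 0.32 to 0.52 for BRCA1, BARD1, PALB2 and BRCA2, 0.36 for FANCD2 and 0.41 for FANCI. The BRCA1 call was lost without any 1 of the 3 Control tumors or of 3 of the Telaglenastat tumors, and BRCA2's and BARD1's without 1 of them, with adjusted p values up to 0.107, 0.0645 and 0.127. With the trend removed none of the 6 was called, and their values ran from -0.08 for BRCA2 to 0.21 for PALB2. On the other side stood XRCC3, MUS81 and the core subunits FANCA, FANCE and FANCG. XRCC3 had the lowest value at -1.36 ± 0.30 (adjusted p = 0.000752), with 4.10, 3.34, 2.28 and 3.42 CPM against 6.62, 10.8 and 7.87, and it was at -0.18 (adjusted p = 0.77) with the trend removed. FANCG went from 25 to 28.5 CPM in Control to 10.3 to 15.9 in Telaglenastat tumors, at -0.97 ± 0.15, and was at -0.20 (adjusted p = 0.363) with the trend removed. XRCC3, MUS81 and FANCA overlap exons of KLC1, CFL1 or ZNF276 on the opposite strand, and the strand setting of the counting is not given in the sources used here.

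**Figure D3:**
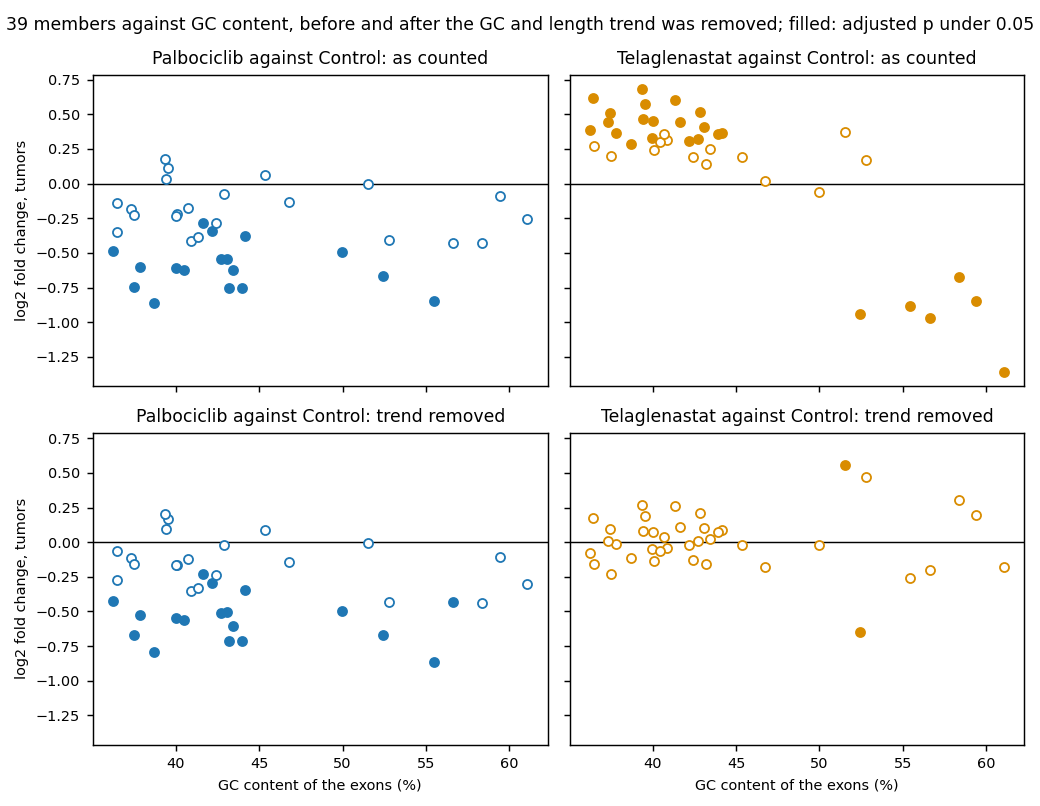
Log2 fold change of the 39 members in tumors (vertical axes) against the GC content of their exons (horizontal axes, %), for Palbociclib (left) and Telaglenastat (right) against Control, as counted (top) and with the GC and length trend removed (bottom). Each point is a gene, filled where the adjusted p was under 0.05. The Telaglenastat values fall with GC content in the top row (r = -0.86) and 2 remain called in the bottom row, while 17 and 18 Palbociclib calls stand in the 2 rows.

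The Combination tumors, compared with the same Controls, held 15 lower and 3 higher members, beside 26.9% and 17.6% of all genes. The median was -0.24 over the members and -0.04 over all genes. With the trend removed 20 were lower and 1 higher, beside 13.1% and 13% of all genes, and 13 calls were shared between the fits. In both fits 12 members were lower, and ATR was higher in both, at 0.52 ± 0.09 (adjusted p = 9.19e-05) in the counts and 0.33 (adjusted p = 0.00551) with the trend removed. ATR measured 77.7, 77.2, 85.9 and 72.4 CPM in Combination tumors, all above the Control tumors and above the 57.8 to 61.0 of the Palbociclib tumors.

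BRIP1 and FANCA were among the lower members in both fits. BRIP1 measured 36.7, 32.7, 31.8 and 31.8 CPM and fell by 40.2% (log2 fold change -0.74 ± 0.10, adjusted p = 4.18e-06). FANCA measured 20.3, 15.7, 17.5 and 27.2 CPM and fell by 62.3% (-1.41 ± 0.18, adjusted p = 3.15e-06, and -0.84 with the trend removed). RAD54L, at 11.8 to 13.4 CPM, was at -1.08 ± 0.13 (adjusted p = 1.34e-06). CLSPN was at -0.53 ± 0.13, EXO1 at -0.63 ± 0.14, BARD1 at -0.65 ± 0.16, UBE2T at -0.44 ± 0.11, RAD51AP1 at -0.41 ± 0.12 and FANCI at -0.28 ± 0.08, each below 0.05 after adjustment.

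For some members the call depended on the trend. BRCA1, which had 1 Combination tumor at 64.8 CPM and the other 3 between 46.1 and 46.9, was at -0.26 ± 0.13 (adjusted p = 0.1) in the counts and at -0.43 (adjusted p = 0.00745) with the trend removed. The other 7 members called lower only with the trend removed included BRCA2 at -0.47, CHEK1 at -0.35, TOPBP1 at -0.29 and FANCD2 at -0.22. XRCC3, MUS81 and FANCE were lower in the counts alone, and MRE11 and ATM higher in the counts alone, at 0.38 ± 0.13 and 0.35 ± 0.13. Without 1 library the call of ATM was lost for 2 of the Control and 3 of the Combination tumors, with adjusted p values up to 0.219, and that of RMI1 for 1 of each, up to 0.118.

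**Figure D4:**
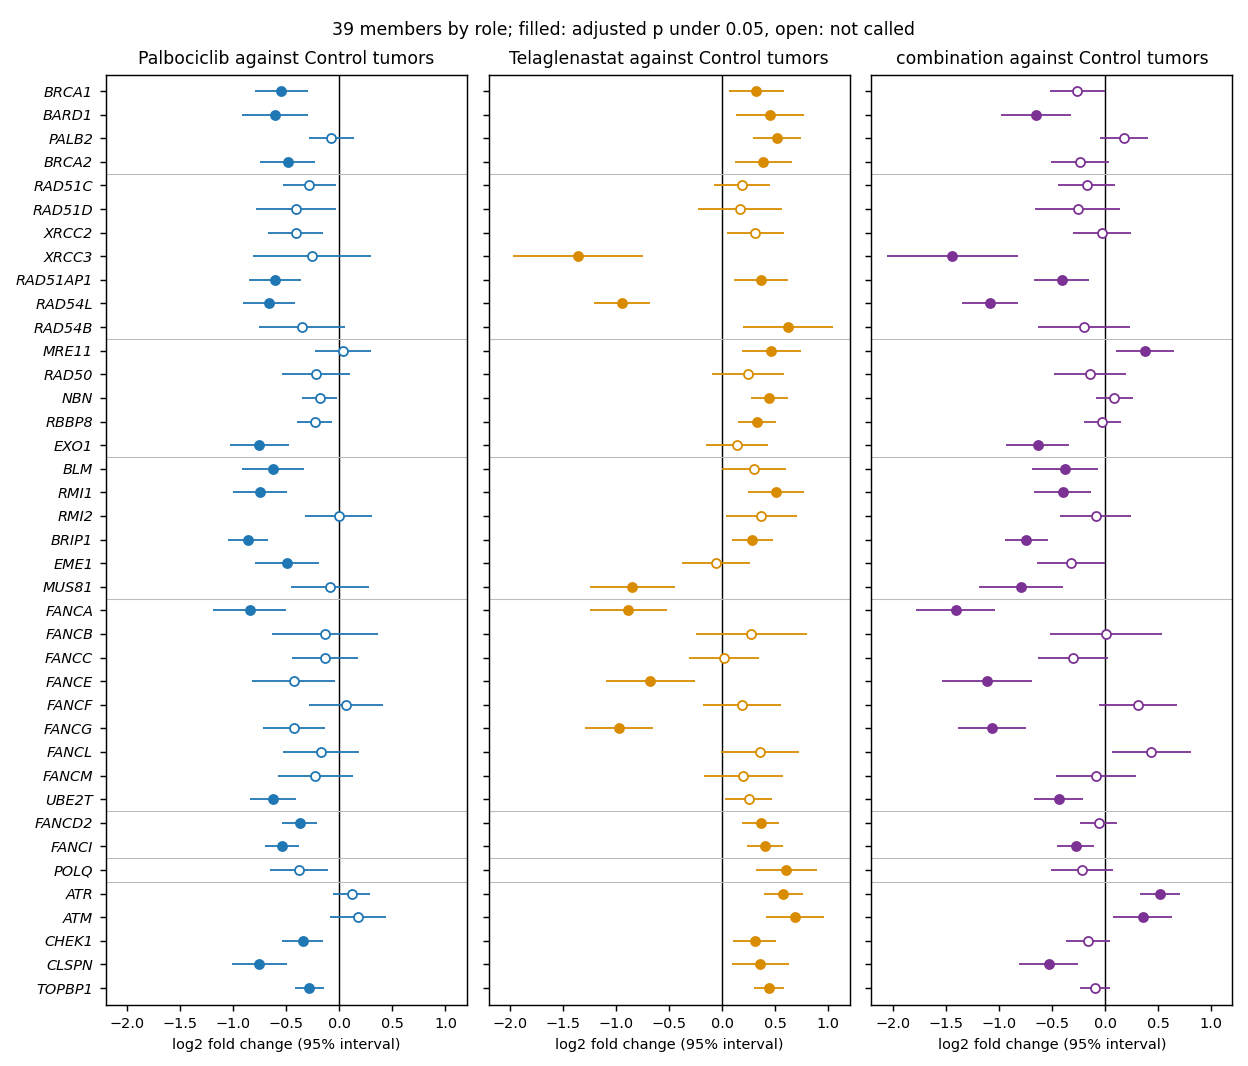
Log2 fold changes of the 39 members, grouped by role from the BRCA genes at the top to the checkpoint genes at the bottom, for Palbociclib, Telaglenastat and combination against the same 3 Control tumors (horizontal axes, with 95% intervals). Filled points have an adjusted p under 0.05. Palbociclib values run from -0.86 to 0.18, and the 6 members called lower with Telaglenastat lie at -0.68 or below.

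Adding Palbociclib to Telaglenastat was read from the Combination against the Telaglenastat tumors, which shares no tumor with Palbociclib against Control. Here 22 members were lower and 0 higher, beside 9.89% and 8.93% of all genes, at a median of -0.42 over the members and 0.02 over all genes. With the trend removed 19 were lower and 0 higher, beside 7.07% and 8.53% of all genes, and 18 of them were shared. BRIP1 was at -1.03 ± 0.09 (adjusted p = 2.6e-07), with 31.8 to 36.7 CPM against 61.2 to 74.5 in Telaglenastat tumors. BARD1 was the lowest at -1.10 ± 0.15 (adjusted p = 2.92e-05), with 22.6, 16.9, 14.5 and 12.5 CPM against 38.3, 33.4, 33.3 and 37.2. CLSPN was at -0.89 ± 0.12, RMI1 at -0.91 ± 0.12, POLQ at -0.82 ± 0.13 and FANCI at -0.68 ± 0.08, all with no overlap between the groups.

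The 2 sets of lower members had 15 genes in common, which is 88.2% of the 17 lower with Palbociclib alone and 68.2% of the 22 lower when Palbociclib was added to Telaglenastat. Those 15 were BRCA1, BARD1, BRCA2, RAD51AP1, EXO1, BLM, RMI1, BRIP1, FANCA, UBE2T, FANCD2, FANCI, CHEK1, CLSPN and TOPBP1, and the same 15 were shared with the trend removed. Across the 39 members the 2 sets of fold changes had r = 0.69 (rho = 0.70), and 33 members were negative in both. Neither the overlap nor the correlation was computed over all genes, so whether this agreement is particular to the members was not tested. RAD54L and EME1 were lower in Palbociclib against Control only, RAD54L being at -0.14 ± 0.13 against Telaglenastat tumors, where it was low already. The difference between the 2 settings was tested as an interaction over all 16 tumors. By edgeR it was called for 0 members (0.0673% of all genes), 6 had an unadjusted p under 0.05 (15.4% of the members beside 9.59% of all genes), DESeq2 called 0 members and 92 genes in all, and without the filter on low counts ATM alone was called, beside 235 genes in all (0.716%). The interaction of BRIP1 was -0.17 with a 95% interval from -0.44 to 0.10, and that of RAD54L was 0.52, from 0.16 to 0.88 (adjusted p = 0.348).

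**Figure D5:**
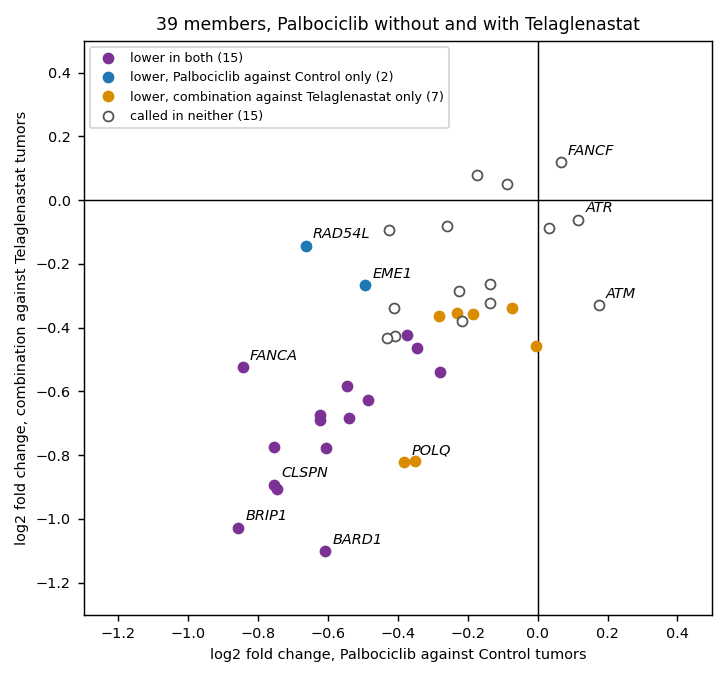
Log2 fold change of each of the 39 members with Palbociclib against Control tumors (horizontal axis) and with the combination against Telaglenastat tumors (vertical axis), which share no tumor. Colours mark the members called lower in both comparisons (15), in 1 of them (2 and 7) or in neither (15). Most points lie in the lower left part, and BRIP1 and BARD1 reach the lowest values on the axes.

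Adding Telaglenastat to Palbociclib gave 12 higher and 6 lower members in the counts, beside 20.1% and 27.5% of all genes, at a median of 0.18. With the trend removed 0 were called, beside 14.5% of all genes, so edgeR's 18 calls, which DESeq2 gave as 19 without removing the trend, all depended on it. The fold changes again fell with GC content (r = -0.84 across members). XRCC3 was the lowest in the counts at -1.18 ± 0.27 and FANCL, the ring-finger subunit of the core ligase, the highest at 0.61 ± 0.16. ATR, at 0.40 ± 0.08 in the counts, was at 0.17 with the trend removed (adjusted p = 0.144).

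In the cultures grown from these tumors without drug, edgeR called 0 members in each of the 5 comparisons. Over all genes it called 0 for Palbociclib, Telaglenastat and both comparisons between treated lines, and 1 (0.00715%) for combination against Control. At an unadjusted p under 0.05 there were 3 members (7.69%) for Palbociclib against Control, beside 4.23% of all genes, and 8 (20.5%) for Telaglenastat, beside 6.42%. Combination against Control had 2 (5.13%, beside 6.4%), combination against Palbociclib 0 (beside 1.98%) and combination against Telaglenastat 10 (25.6%, beside 14.1%). DESeq2 called 1 member in the last of these, BRCA2, beside 99 genes in all (0.766%), and 0 members in the others, where it called 0, 13, 2 and 3 genes in all. Every Palbociclib line lay above every Control line in 10 members and below in 3, which was so for 8.19% and 10.1% of all genes. Every Combination line lay above every Telaglenastat line in 13 members and below in 0, beside 7.46% and 6.22% of all genes. The median SE of a member's log2 fold change against Control was 0.16 in cultures and 0.13 in tumors. The Control lines differed among themselves, with a GC slope of -0.07 in the second against 0.15 and 0.18. In squared count differences relative to sampling noise, that line lay 3.7 to 6.4 from the Palbociclib lines. It lay 9.4 and 10.9 from the other Control lines, which limits every culture comparison with Control.

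Values of single members show what these cultures could resolve. BRIP1 measured 70.1, 92.2 and 72.4 CPM in Control lines and 82.5, 84.6 and 96.2 in lines from Palbociclib tumors, with a log2 fold change of 0.17 and a 95% interval from -0.15 to 0.48. This interval does not reach the -0.86 of the tumors. BRCA1 was at 0.18 (from -0.08 to 0.44), FANCI at 0.18 (from -0.11 to 0.47) and RMI1 at 0.20 (from -0.04 to 0.43), and these intervals also lay above the tumor values of -0.55, -0.54 and -0.75. Those tumor values have a spread of their own. The difference itself is tested below, where BRCA1 and FANCI were not called with the trend removed. The members' values for Palbociclib lines fell with GC content (r = -0.81 across the 39 members), and with the trend removed BRIP1 was at 0.04, from -0.29 to 0.37, and RMI1 at 0.04, from -0.21 to 0.28. For FANCA, with 81.3, 72.0 and 83.8 CPM in Control lines and 56.7, 66.3 and 67.5 in Palbociclib lines, the value was -0.32, from -0.85 to 0.22.

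The 8 members at an unadjusted p under 0.05 in lines from Telaglenastat tumors all had negative values. POLQ measured 57.2, 68.4 and 57.8 CPM in Control lines and 43.6, 43.4 and 38.3 in Telaglenastat lines, with no overlap, at -0.55 (95% interval from -0.85 to -0.25, adjusted p = 0.711). TOPBP1 measured 197, 222 and 170 against 128, 158 and 145 CPM, at -0.45 (from -0.77 to -0.13), and BARD1 was at -0.46 (from -0.75 to -0.16). In 7 members every Telaglenastat line lay below every Control line, which was so for 4.81% of all genes. The Telaglenastat lines differed among themselves, with GC slopes from -0.04 to 0.42 and summed levels of the licensing genes of 1581, 3001 and 2675 CPM. Without the first of them the comparison of combination with Telaglenastat lines called 2 members, ATM higher at 0.66 and FANCG lower at -0.80, beside 6.39% of all genes.

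Whether a drug's effect differed between tumors and cultures was tested over all 28 libraries. For Palbociclib 7 members differed, each more negative in tumors, beside 1.03% of all genes more negative and 0.356% more positive: BRCA1, BRCA2, RBBP8, BLM, RMI1, BRIP1 and FANCI. The largest difference was that of BRIP1, -1.03 (adjusted p = 0.00148), and with the trend removed BRIP1 and RMI1 were called, beside 1.07% of all genes. This count moved with the libraries used, and leaving out 1 library gave between 2 and 12 members. For Telaglenastat 21 members differed upwards and 4 downwards, beside 15.6% and 18.5% of all genes, and with the trend removed POLQ alone was called, at 0.74 (adjusted p = 0.0222), beside 3.89% of all genes. Leaving out 1 library gave between 13 and 27 members for Telaglenastat, with 13 without Control culture 2 and 16 without Control tumor 3. For the combination BRIP1 was lower by -0.67 and ATR higher by 0.61 in tumors than in cultures, beside 0.795% of all genes lower and 2.11% higher, and with the trend removed BRIP1 alone was called, at -0.84 (adjusted p = 0.00876), beside 2.68% of all genes. Leaving out 1 library gave between 0 and 3 members for the combination, the 3 beside 7.79% of all genes.

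The untreated state was compared between the 3 Control tumors and the 3 Control lines. Here 31 members were lower in the tumors and 1 was higher, beside 22.8% and 23.1% of all genes, at a median of -0.82 over the members and 0.07 over all genes. With the trend removed 32 members were again called, beside 40.2% of all genes, 29 of them in the same direction in both fits. FANCI measured 245, 278 and 237 CPM in the lines against 128, 133 and 128 in the tumors and fell by 53.9% (log2 fold change -1.12 ± 0.12, adjusted p = 2.04e-08). FANCD2 was at -1.19 ± 0.10 (adjusted p = 4.3e-10), RMI1 at -1.3 ± 0.13 and POLQ at -1.33 ± 0.15, and the BRCA genes lay between -0.95 for BRCA1 and -0.49 for PALB2. The single higher member was FANCF, an intronless core subunit gene whose exon overlaps GAS2 on the opposite strand, with 10.9, 14.1 and 10.8 CPM in tumors against 6.53, 5.91 and 5.2 in lines (0.87 ± 0.22, adjusted p = 0.00239).

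Some members did not follow. RAD50 was at 0.10 (95% interval from -0.27 to 0.46) and RMI2 at -0.18 (from -0.56 to 0.19), and ATM at -0.34 ± 0.16 (adjusted p = 0.0847). Beside the members, 18 of 21 origin licensing genes were lower in the Control tumors, at a median of -0.96, and 7 of 8 tested stroma, vessel and leukocyte markers were higher, at a median of 4.05. Material, growth condition and the share of other cells differ together between tumors and lines and cannot be told apart here.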

How the data were processed

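The authors deposited 1 table of raw gene counts for the 28 libraries, made from human-genome alignments with STAR (hg38, after CASAVA 1.8 per the labels); the counting tool, its strand setting and the handling of mouse reads are not given in the sources used here. The 39 members and all gene lists were chosen with earlier results of these data known. Gene lengths, GC content and coordinates came from GENCODE 29 (GRCh38), to which 57940 of 58278 rows matched; unmatched rows held 0.0287% of counts. Counts were filtered with filterByExpr (minimum count 10), scaled by TMM and tested over all genes with edgeR 4.0.16's quasi-likelihood test in R 4.3.3, with Benjamini-Hochberg adjustment at 0.05. A prior count of 2 was used for log2 CPM values alone, and the tests kept edgeR's default. Each SE is the absolute log2 fold change divided by the square root of the test's F statistic. The scripts were tested on simulated data. The 16 tumors (14848 genes), the 12 cultures (13985) and all 28 libraries (15466) were fitted apart, the last for contrasts between tumors and cultures. CPM values were computed with TMM-scaled library sizes, within the tumors and within the cultures apart. Intervals are 95%. The GC and length trend was removed from each library with natural splines (4 degrees of freedom, MASS 7.3-60.0.1) as offsets. Alternatives were DESeq2 1.42.0, DESeq2 size factors, no filter, the compared groups only, the replicate number as a block and leaving out each library. Tumors are separate tumors and cultures separate lines, and p-values measure only the spread between these samples. The labels number replicates in each group, but same-numbered samples did not deviate together: the median correlation of their deviations was -0.004 over 21 pairs of tumors and -0.034 over 18 pairs of cultures. Library values are given, in each role group, for up to 2 members with the smallest adjusted p in a tumor comparison with Control and 1 in a culture comparison with Control, and for BRCA1, BRCA2, FANCD2, ATM and ATR; the library values of CLSPN, FANCF and RAD51AP1 were added after seeing the data. Upstream sequences are from RefSeq, printed for members of 4 role groups with a motif and the smallest adjusted p. 1 gene of the wider pathway lists is counted there but not reported here by name.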

Additional observations from a re-analysis of the deposited data

Results flagged for a closer look

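In 3 of 60 tests, each of 1 member in 1 group of at least 4 tumors, 1 tumor stood far from the rest of its group, where chance alone gives about 1 in 20. The tests share the same tumors and are not independent, and the Control group, with 3 tumors, was not tested. Gaps are shares of the group's range in log2 CPM. ATR in the third Telaglenastat tumor was at 71.2 CPM against 83.7 to 86.3 in the others, a gap of 0.842 of the group's range. NBN in the fourth Combination tumor was at 125 CPM against 144 to 147 (0.843 of the range), and BRCA1 in the first Combination tumor was at 64.8 CPM against 46.1 to 46.9 (0.954 of the range).

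For the members picked by the rule for library values, 23 drug effects differed between tumors and cultures in the test over all 28 libraries. That rule largely took small adjusted p values in comparisons with Control, which enter these differences. The 23 are therefore a list and not evidence of a difference. Of all genes, 1.03% were more negative in tumors and 0.356% more positive for Palbociclib, 18.5% and 15.6% for Telaglenastat, and 0.795% and 2.11% for the combination. For Palbociclib, the log2 effect in tumors minus that in cultures was -1.03 for BRIP1, -0.95 for RMI1, -0.73 for FANCI, -0.73 for BRCA1 and -0.76 for BRCA2. For the combination it was -0.67 for BRIP1 and 0.61 for ATR. For Telaglenastat it was 1.25 for POLQ, 1.00 for BARD1, 0.99 for TOPBP1, 0.92 for ATM, 0.91 for ATR, 0.90 for BRCA2, 0.77 for FANCD2, 0.76 for BRIP1, 0.76 for FANCI, 0.75 for RMI1, 0.75 for PALB2, 0.72 for EXO1, 0.65 for NBN, 0.48 for BRCA1, -0.83 for FANCG and -1.27 for XRCC3. With the GC and length trend removed, those of BRIP1 and RMI1 for Palbociclib, of POLQ for Telaglenastat and of BRIP1 for the combination were still called.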

How the results depend on the processing

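Removing the GC and length trend left 2 calls of 25 for Telaglenastat against Control tumors and 0 of 18 for Combination against Palbociclib tumors, the same numbers with the replicate block added. There BRIP1 with Telaglenastat went from 0.29 to -0.12, and to -0.0899 with the block, and BRCA2 from 0.39 to -0.0762, and to -0.0357 with the block. The Palbociclib effect between tumors and cultures, called for 7 members, was called for 14 by DESeq2, beside 496 genes in all. It was called for 12 without the filter, 12 with the compared groups only, and 2 with the trend removed, the last beside 1.07% of all genes. For the counts of 12 the share of all genes is not given here. For Telaglenastat that count went from 25 to 1 with the trend removed, beside 3.89% of all genes. For the combination, 2 became 1 with DESeq2 size factors (BRIP1), beside 1.82% of all genes, and 4 without the filter, beside 3.45%. It became 1 with the trend removed, beside 2.68%. With the compared groups only it became 5, beside 12.8% of all genes, so that rise cannot be read as particular to the members. DESeq2 called 1 member, BRCA2, in combination against Telaglenastat cultures, beside 0.766% of all genes, and without the filter the interaction in tumors was called for 1, ATM, beside 0.716%. The cause of these shifts was not tested.

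The replicate block, whose numbers did not pair the samples, gave 15 calls for Palbociclib, 26 for Telaglenastat and 16 for Combination against Control tumors, 17 for Combination against Palbociclib, 20 against Telaglenastat, 32 for Control tumors against cultures, and 0 in the cultures and for the interaction. The shares of all genes under the block are not given beside these counts, which show only how the members' counts moved. Effects that differed between tumors and cultures with the block numbered 2 for Palbociclib (BRIP1 and RMI1, beside 0.634% of all genes), 23 for Telaglenastat and 1 for the combination (ATR, beside 1.95%). With the block and the trend removed they numbered 1 (BRIP1, beside 0.478% of all genes), 1 (POLQ, beside 2.94%) and 1 (BRIP1, beside 1.84%).

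Leaving out 1 library gave 12 to 17 calls for Palbociclib, 17 to 27 for Telaglenastat and 14 to 19 for Combination against Control tumors, 15 to 18 for Combination against Palbociclib and 18 to 23 against Telaglenastat, 29 to 34 for Control tumors against cultures, 0 to 0 for the interaction and the cultures, and 0 to 2 for combination against Telaglenastat cultures. Effects that differed ranged from 2 to 12 for Palbociclib, 13 to 27 for Telaglenastat and 0 to 3 for the combination. The 3 came without Telaglenastat culture 2, beside 7.79% of all genes. The other counts in this paragraph are given without the share of all genes and show only how the members' counts moved with the libraries. The Palbociclib count fell to 2 without Control culture 1 or 3, to 3 without Control tumor 2 or 3, Palbociclib tumor 5 or Palbociclib culture 1, and to 4 without Control tumor 1, Palbociclib tumor 4 or Palbociclib culture 2 or 3, and rose to 11 and 12 without Telaglenastat culture 1 and 3. The Telaglenastat count was 13 without Control culture 2 and 16 without Control tumor 3. The combination count was 0 without Control tumor 1 or 2, Combination tumor 3 or Combination culture 1 or 3, and 1 without Control tumor 3, Combination tumor 2, Combination culture 2 or any Control culture. Over the named calls in tumors, leaving out 1 library kept the call 598 times, lost it 26 times and reversed it 0 times. The 3 Control tumors enter every comparison with Control, and depth, at most 13815675 counts, limits members as low as XRCC3.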
